A study of Mus musculus with 62 samples.

Results

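The subject is 9 genes of liver glucose metabolism, namely Pck1, G6pc, Fbp1, Pcx, Tat, Pklr, Gckr, Ppargc1a and Foxo1. They were taken by symbol from a list written for this work and matched by mouse Entrez identifier to the liver count table, where 9 of 9 were listed among 16206 genes and 9 of 9 passed the filter on low counts that left 12968 genes for testing. RNA sequencing was done on the liver, prefrontal cortex and striatum of female C57BL/6 mice, an inbred strain, given a mixture of polychlorinated biphenyls (PCBs) by mouth. PCBs are persistent industrial chemicals, and the mixture is called MARBLES in the series text. The vehicle mice received no PCBs (0 mg/kg), and the other groups received 0.1, 1 or 6 mg/kg. Ordered by rising dose from vehicle, the groups held 4, 4, 6 and 6 liver libraries, and 4, 5, 6 and 6 libraries of each brain region. The sources used here do not give the age of the mice, the length of dosing, the hour at which tissue was taken, or whether the mice had been fed. Libraries of a group are taken as different mice because their titles carry different numbers.

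Between meals the liver releases glucose that it makes from lactate, glycerol and amino acids, and after meals it burns or stores glucose instead. Glucagon, acting through cyclic AMP, and glucocorticoids raise transcription of the enzymes that are particular to glucose production, and insulin lowers it, in large part by keeping the factor Foxo1 out of the nucleus. Many of these genes also follow the daily feeding cycle and the liver clock.

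In vehicle livers the 9 genes covered a wide range of levels, given here in CPM (read counts scaled to a common library total, after TMM normalization for composition) per kilobase of the longest annotated transcript, mean ± SD with n = 4. Fbp1 stood at 762.7 ± 193, Pck1 at 586.5 ± 198 and Tat at 531.4 ± 41.4 CPM per kilobase. The SD ranges of those 3 levels overlapped. Pklr followed at 218.4 ± 58.4, G6pc at 123 ± 52.3, Pcx at 94.6 ± 14 and Gckr at 71.9 ± 11.2 CPM per kilobase. In that run, the SD ranges of Pklr and G6pc, of G6pc and Pcx, and of Pcx and Gckr touched or overlapped, so those neighbours are not ordered beyond their spread. The regulators were far scarcer, with Foxo1 at 2.64 ± 0.662 and Ppargc1a at 1.25 ± 0.219 CPM per kilobase, and their SD ranges did not overlap. All 6 hepatocyte markers that were listed had counts in each group of liver libraries. Their summed level was 107800 to 124600 CPM in vehicle, 102100 to 125100 at 0.1 mg/kg, 105900 to 185400 at 1 mg/kg and 81480 to 136900 at 6 mg/kg.

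**Figure D1:**
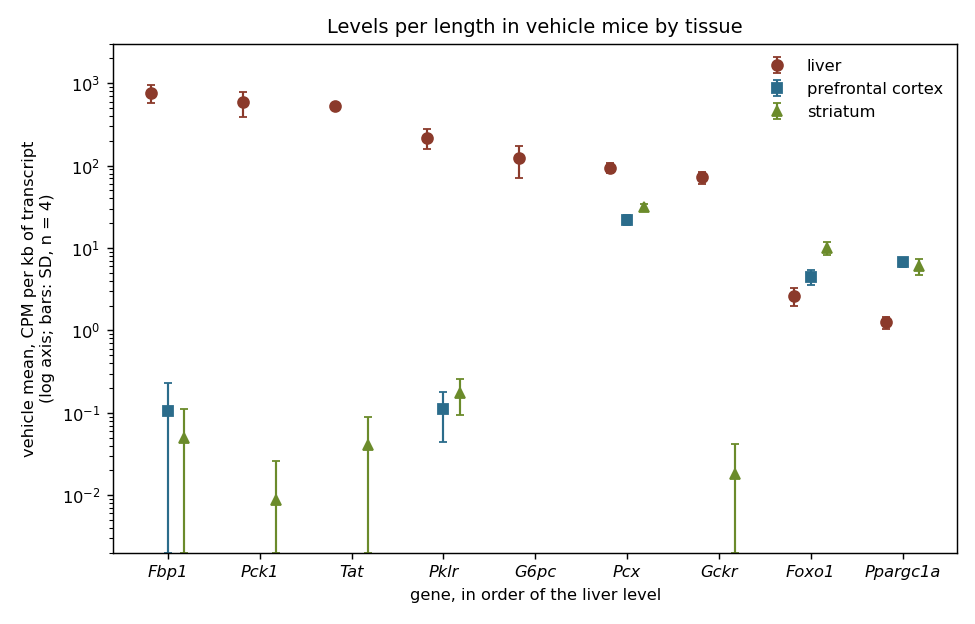
Level per transcript length in vehicle mice (points, mean of 4 libraries; bars, SD; log axis, with bars that would reach 0 cut at the bottom of the axis), in CPM per kilobase, for the 9 genes in liver, prefrontal cortex and striatum. The 7 genes led by Fbp1 lie above 70 in liver, and Foxo1 and Ppargc1a lie higher in both brain regions than in liver. The tables of the tissues were scaled separately.

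The promoter stretches of Pck1, G6pc and Pklr are shown because they hold letters of the classical hormone and sugar response elements of this pathway. They are RefSeq sequences of build GRCm38.p6, begin 250 bases before the annotated start, stop before the first exon in GENCODE vM21 (or, for G6pc, at the end of a match that reaches it), run 5′ to 3′ on the plus strand, and carry the matches in capitals. The Pck1 stretch is chr2:173152823-173153047, the G6pc stretch chr11:101367466-101367561 and the Pklr stretch, upstream of the second of its annotated starts, chr3:89136373-89136571.
Pck1: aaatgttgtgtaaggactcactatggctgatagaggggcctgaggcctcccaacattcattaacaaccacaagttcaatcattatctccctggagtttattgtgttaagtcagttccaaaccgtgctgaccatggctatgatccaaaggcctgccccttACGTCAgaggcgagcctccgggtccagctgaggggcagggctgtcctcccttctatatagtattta
G6pc: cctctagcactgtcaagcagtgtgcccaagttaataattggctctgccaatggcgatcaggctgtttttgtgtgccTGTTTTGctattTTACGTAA
Pklr: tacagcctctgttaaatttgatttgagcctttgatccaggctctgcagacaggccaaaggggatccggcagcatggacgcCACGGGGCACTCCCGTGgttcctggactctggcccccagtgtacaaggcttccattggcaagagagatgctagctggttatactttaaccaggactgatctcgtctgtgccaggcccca
The capitals in Pck1 are the reverse strand of TGACGT, the core of the cyclic AMP response element, which begins at -91 from the start. In G6pc they are TGTTTTG, the core of the insulin response sequence bound by Foxo1, at -174, and TTACGTAA, the consensus of the clock output factors Dbp and Tef, at -162. In Pklr they are CACGGG and CCCGTG with 5 bases between them, the imperfect E-box pair of the glucose response element bound by Mlxipl (ChREBP), and the pair begins at -170. Both strands of the 250 bases upstream were searched in 32851 promoters, and no match in the 9 genes overlapped another. TGACGT occurred in 6.47% of promoters, TGTTTTG in 5.56%, TTACGTAA in 0.113%, and the pair in 0.00304%, which is the Pklr promoter alone. Among the other members, Ppargc1a held TGACGT at -50, Gckr held TGTTTTG at -83 and Pcx held the E-box CACGTG, found in 6.02% of promoters, at -248. The windows of Ppargc1a (chr5:51567726-51567975) and Tat (chr8:109990186-109990435) lie upstream of annotated starts inside the loci given below. The forkhead site TGTTTAC, found in 3.17% of promoters, matched none of the 9 genes. Fbp1, Tat and Foxo1 held no match to any of these letters. A match describes the letters in the window and is not evidence of binding.

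At 6 mg/kg, 7 of the 9 genes had a lower fitted level than in vehicle, against 48.1% of all tested genes, and none passed the test. Over the alternative fits 5 to 8 of the 9 were lower, the fewest with a covariate for clock gene levels. That covariate did not overlap between vehicle and 6 mg/kg livers, so it cannot be well separated from dose. In the fit without covariates the changes ran from -1.16 for Fbp1 to 0.41 for Gckr on the log2 scale. That order depended on the fit: with 1 surrogate variable, a covariate estimated from the counts, Fbp1 was at -0.56, G6pc at -0.78, Gckr at 0.06 and Pcx at 0.33. The test was edgeR's quasi-likelihood test on all 20 liver libraries with Benjamini-Hochberg adjustment over 12968 genes and a threshold of 0.05. It called 2.8% of all genes at 6 mg/kg (363 of 12968) and 0 of the 9 members, of which 2, Pck1 and Tat, had an unadjusted p under 0.05, as did 24.2% of all genes. The number of genes called moved widely with single libraries and with covariates, as given in the last section. The median log2 change of the members was -0.64, and that of all tested genes was 0.02. Levels below are TMM-scaled CPM, and differences are log2 fold changes from this fit with their standard errors (SE) and 95% confidence intervals. In bulk liver, fewer cells of a type and less RNA per cell cannot be told apart.

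**Figure D2:**
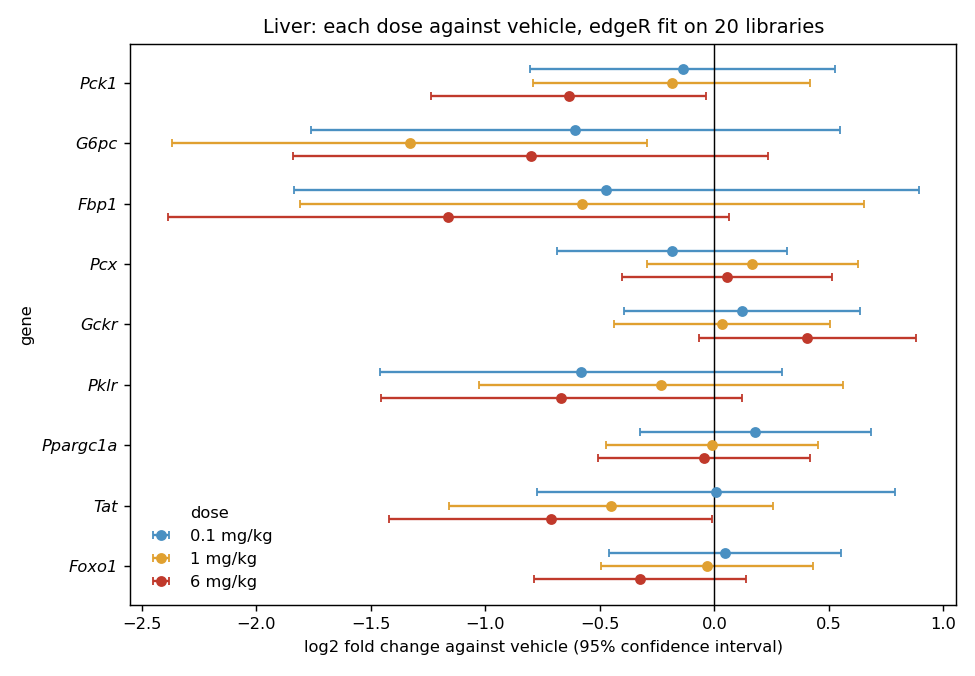
Fitted log2 fold change of each gene in liver at 0.1, 1 and 6 mg/kg against vehicle (points) with 95% confidence intervals (bars), from the fit on 20 libraries. At 6 mg/kg the intervals of Pck1 and Tat lie just below 0, ending at -0.03 and -0.01, and at 1 mg/kg that of G6pc ends at -0.29, but none of the 27 comparisons passed after adjustment.

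Pck1 (Entrez 18534; chr2:173153073-173159274, plus strand, GRCm38.p6) encodes cytosolic phosphoenolpyruvate carboxykinase, which commits oxaloacetate to glucose production. It stood at 1303, 2385, 1202 and 1508 CPM in the 4 vehicle livers and at 1109, 1407, 1763 and 1534 CPM at 0.1 mg/kg. Its lowest, median and highest levels were 619, 1236 and 2689.7 CPM at 1 mg/kg and 780.3, 1071 and 1228 CPM at 6 mg/kg. The 6 mg/kg livers formed a narrow band at the bottom of the range, with 3 of 6 below the lowest vehicle liver and the other 3 between 1219 and 1228 CPM, so the groups overlapped slightly. The log2 change at 6 mg/kg was -0.64 (SE 0.29, interval -1.24 to -0.03), with an edgeR adjusted p of 0.183.

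G6pc (Entrez 14377; chr11:101367716-101377903, plus strand) encodes the catalytic subunit of glucose-6-phosphatase, the last step before glucose leaves the cell. Its vehicle levels were 376, 431, 208 and 172 CPM, and those at 0.1 mg/kg were 317, 113, 179.6 and 171 CPM. At 1 mg/kg the lowest, median and highest were 56.3, 103 and 246 CPM, and at 6 mg/kg they were 44.99, 109 and 401 CPM. At 1 mg/kg 5 of 6 livers and at 6 mg/kg 4 of 6 lay below the lowest vehicle liver, and animals 53 and 54 at 6 mg/kg reached 401 and 275 CPM, inside the vehicle range. The change was -1.33 (SE 0.497, interval -2.37 to -0.29) at 1 mg/kg, with an edgeR adjusted p of 0.546 (-2.20 with the GC slope, a measure of how a library depends on the GC content of genes, as a covariate), and -0.80 (SE 0.498, interval -1.84 to 0.23) at 6 mg/kg, with an edgeR adjusted p of 0.323. The 1 mg/kg value had the smallest unadjusted p of the 27 member comparisons with vehicle, 0.0145 in edgeR's test, while at that dose 8.44% of all genes had an unadjusted p under 0.05 and 0% were called.

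Fbp1 (Entrez 14121; chr13:62864753-62888298, minus strand) encodes fructose bisphosphatase, the step of glucose production that opposes phosphofructokinase. It stood at 1162, 1428.5, 1181 and 739 CPM in vehicle and at 718, 339, 1317.5 and 878 CPM at 0.1 mg/kg. The lowest, median and highest levels at 1 mg/kg were 227, 590.4 and 1384.5 CPM, and at 6 mg/kg 109, 329 and 1179 CPM. The 6 mg/kg livers were split, with 4 of 6 below the lowest vehicle liver, at 109 to 386 CPM, and animals 55 and 56 at 936 and 1179 CPM. The change at 6 mg/kg was -1.16 (SE 0.587, interval -2.39 to 0.06) and did not pass, with an edgeR adjusted p of 0.229.

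Pcx (Entrez 18563; chr19:4510472-4621752, plus strand) encodes pyruvate carboxylase, which makes the oxaloacetate that Pck1 uses. Its vehicle levels were 376, 438, 439 and 317 CPM and those at 0.1 mg/kg 288, 337, 435 and 319 CPM. Livers at 1 mg/kg ran from a lowest of 317.5 through a median of 425 to a highest of 621 CPM, and those at 6 mg/kg from 297 through 358 to 629 CPM. Livers at 6 mg/kg lay on both sides of the vehicle range, 2 below it, 2 within it and 2 above it. The change was 0.05 (SE 0.222, interval -0.41 to 0.51), with an edgeR adjusted p of 0.904.

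Tat (Entrez 234724; chr8:109986078-109999804, plus strand) encodes tyrosine aminotransferase, a glucocorticoid-induced enzyme that feeds amino acid carbon into glucose production and ketone bodies. The 4 vehicle livers were close together at 1246.5, 1289, 1375 and 1138 CPM, and the 0.1 mg/kg livers were spread on both sides of them at 1791, 1024, 1611 and 645 CPM. The lowest, median and highest levels were 710.5, 791 and 1522 CPM at 1 mg/kg and 280.5, 706 and 1359 CPM at 6 mg/kg. At each of these 2 doses 5 of 6 livers lay below the lowest vehicle liver, and the exceptions were animal 50 at 1 mg/kg and animal 56 at 6 mg/kg. The change at 6 mg/kg was -0.71 (SE 0.34, interval -1.42 to -0.01) and did not pass, with an edgeR adjusted p of 0.201.

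Pklr (Entrez 18770; chr3:89136122-89146815, plus strand) encodes liver pyruvate kinase, the last step of glycolysis, whose transcription rises with sugar and insulin. It stood at 632, 531, 873 and 498 CPM in vehicle and at 585, 254, 629.6 and 225 CPM at 0.1 mg/kg. Its lowest, median and highest levels at 1 mg/kg were 268, 494 and 834 CPM, and at 6 mg/kg 172, 397 and 657 CPM. At 1 and at 6 mg/kg, 3 of 6 livers lay below the lowest vehicle liver, and none lay above the highest. The change at 6 mg/kg was -0.67 (SE 0.38, interval -1.46 to 0.12), with an edgeR adjusted p of 0.279.

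Gckr (Entrez 231103; chr5:31297266-31327302, plus strand) encodes a regulatory protein that restrains the entry of glucose into glycolysis in hepatocytes when glucose is low. Its vehicle levels were 287, 228, 335 and 304 CPM and those at 0.1 mg/kg 399, 318, 253 and 285 CPM. At 1 mg/kg the lowest, median and highest were 202, 290 and 399 CPM, and at 6 mg/kg 212, 413 and 557 CPM. Of the livers at 6 mg/kg, 4 of 6 lay above the highest vehicle liver and animal 55 lay below the lowest. The change at 6 mg/kg was 0.41 (SE 0.23, interval -0.07 to 0.88), with an edgeR adjusted p of 0.276.

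Ppargc1a (Entrez 19017; chr5:51454249-52115853, minus strand) encodes PGC-1alpha, a coactivator that fasting induces in liver and that drives Pck1 and G6pc together with Foxo1. It was counted 40 to 111 times in a liver library, at 9.01, 7.46, 6.44 and 9.53 CPM in vehicle and 11.4, 7.04, 7.14 and 11.2 CPM at 0.1 mg/kg. The ranges were 5.19 to 10.9 CPM at 1 mg/kg, with a median of 8.22, and 5.98 to 10.6 CPM at 6 mg/kg, with a median of 7.58. These ranges took in that of vehicle, with 1 of 6 livers below it and 1 above it at each of the 2 doses, and the change at 6 mg/kg was -0.04 (SE 0.223, interval -0.51 to 0.42), with an edgeR adjusted p of 0.924. The sign of this small value differed between ways of fitting it.

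Foxo1 (Entrez 56458; chr3:52268337-52350109, plus strand) encodes the forkhead factor that insulin signalling inactivates, and its protein location cannot be read from counts. It stood at 22.5, 31.1, 18.2 and 19.9 CPM in vehicle and at 20.4, 22.6, 25.4 and 26.3 CPM at 0.1 mg/kg. The lowest, median and highest were 15.0, 21.1 and 32.8 CPM at 1 mg/kg and 12.4, 17.5 and 28.2 CPM at 6 mg/kg. Of the livers at 6 mg/kg, 3 of 6 lay below the lowest vehicle liver and the rest within the vehicle range. The change at 6 mg/kg was -0.33 (SE 0.223, interval -0.79 to 0.14), with an edgeR adjusted p of 0.372. It was -0.18 with the surrogate variable and 0.14 with a covariate for clock gene levels.

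**Figure D3:**
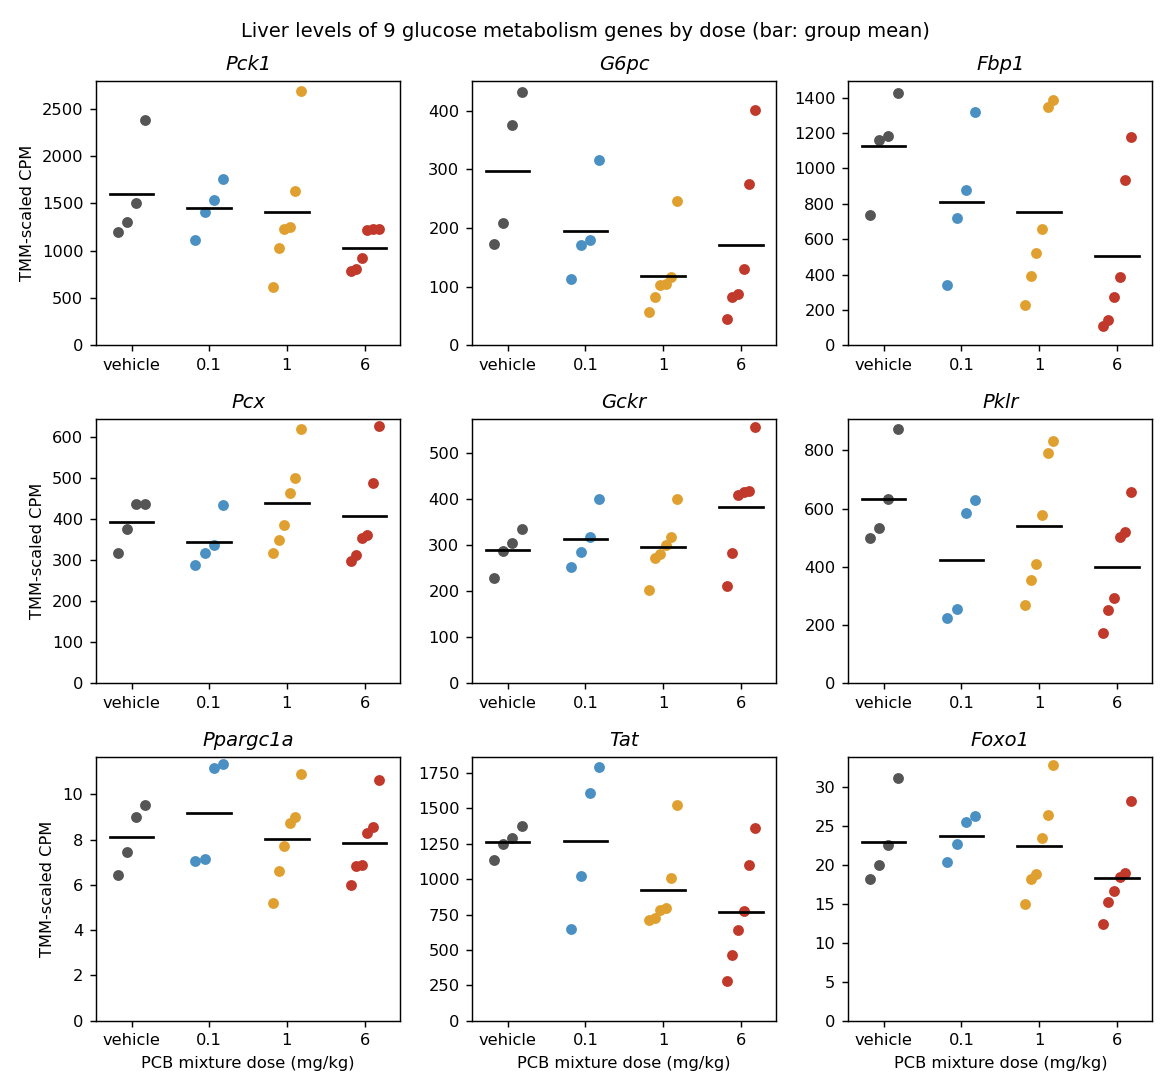
TMM-scaled CPM of each gene in the 20 liver libraries by dose (points, one per library, in ascending order within a group; bars, group means; each panel starts at 0). The vehicle libraries of Tat sit together at 1138 to 1375 CPM, and at 6 mg/kg Fbp1 spans 109 to 1179 CPM; for no gene is a dosed group fully apart from vehicle.

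At the lower doses no member passed either. The 0.1 mg/kg comparison called 0.0154% of all genes. There 5 of 9 member changes were below 0, from -0.61 for G6pc to 0.18 for Ppargc1a, against 50.2% of all genes. Of the 9, 0 had an edgeR p under 0.05 before adjustment, against 4.1% of all genes. The 1 mg/kg comparison called 0% of all genes. There 7 of 9 member changes were below 0, from -1.33 for G6pc to 0.17 for Pcx, against 47.7% of all genes. The comparisons with vehicle share the same 4 vehicle libraries. As a slope per step of dose rank (vehicle, 0.1, 1 and 6 mg/kg as equal steps), 7 of 9 members were below 0, against 47.2% of all genes. None of the members passed, against 4.81% of all genes called and 25.4% with an unadjusted p under 0.05. The slope of Tat was -0.27 (SE 0.105, edgeR adjusted p 0.122) and that of Pck1 was -0.20 (SE 0.0923, edgeR adjusted p 0.173). With the GC slope as a covariate the Pck1 slope was -0.38 and did not pass (edgeR adjusted p 0.333). Without animal 56 at 6 mg/kg, which had the highest Tat level of its group, the Tat slope was -0.34 and passed with an edgeR adjusted p of 0.0423. It was the 1 of 765 alternative values of the member changes to pass. Among the libraries left out in turn, animal 56 also gave the most calls among all genes at 6 mg/kg.

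The members differed widely in how much mice of the same dose varied. Within dose groups the SD of log2 CPM was 1.04 for Fbp1, more than 96.6% of the tested liver genes, 0.855 for G6pc (92.6%) and 0.668 for Pklr (83.4%). Tat, at 0.598, and Pck1, at 0.487, lay above the median gene, whose SD was 0.392. Gckr, Foxo1, Pcx and Ppargc1a lay below it, at 0.366, 0.354, 0.34 and 0.325.

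After the dose group means were subtracted, Fbp1 and Pcx rose and fell together across the 20 livers, with a Pearson r of 0.824 and a Spearman rho of 0.853. In the 6 mg/kg group, animals 55 and 56 had the highest Fbp1 and Pcx and the lowest Gckr. Fbp1 with Pcx was the 1 pair of 36 to pass after adjustment. Its within-group permutation p was 0.00025 for r (adjusted p 0.009) and 1e-04 for rho (adjusted p 0.0036). The r was 0.82 without the 2 livers farthest from the median of Fbp1. However, 787 of 12967 other genes had an r of at least 0.8 to Fbp1. An r of this size was therefore not particular to the pair of Fbp1 and Pcx. Gckr ran against both, with an r of -0.668 to Fbp1 (permutation p 0.0101, adjusted 0.0906) and -0.697 to Pcx (permutation p 0.00466, adjusted 0.065). Pklr followed Tat with an r of 0.699 (permutation p 0.00542, adjusted 0.065) and Fbp1 with an r of 0.578 (permutation p 0.0255, adjusted 0.183). These 4 pairs had an unadjusted p under 0.05 and did not pass over 36 pairs. The r of Pcx to Gckr was -0.449 and that of Fbp1 to Pklr 0.404 once the 2 farthest livers were left out. Pck1 and G6pc, which share their hormonal control in textbooks, had an r of 0.08 (permutation p 0.728, adjusted 0.908), and Pck1 and Ppargc1a an r of 0.10 (permutation p 0.732, adjusted 0.908).

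**Figure D4:**
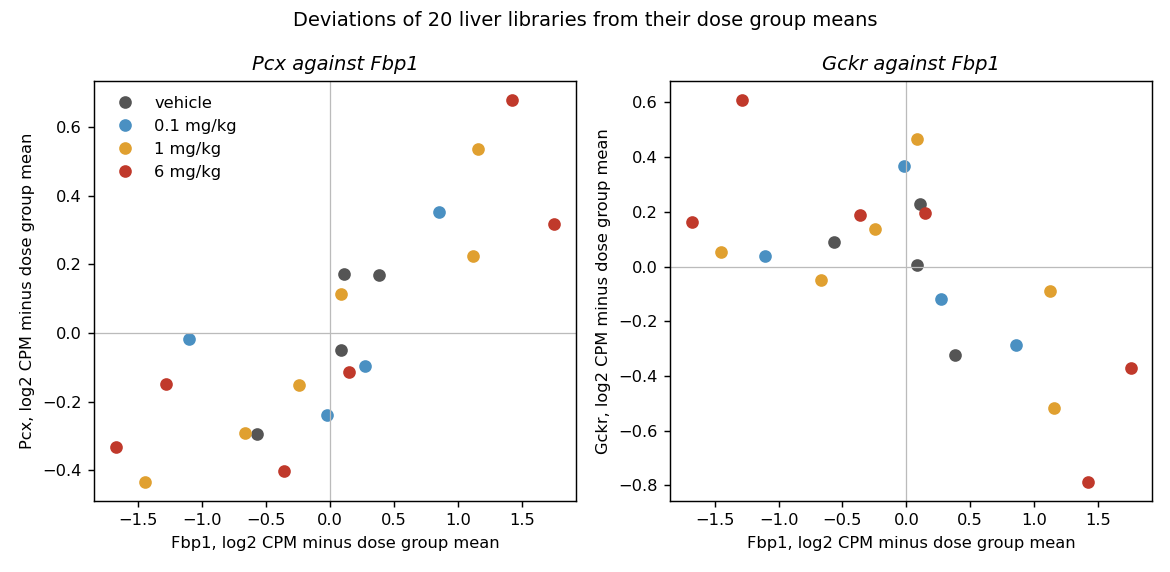
Deviation of log2 CPM from the dose group mean in the 20 liver libraries (points, coloured by dose), for Pcx against Fbp1 on the left and Gckr against Fbp1 on the right. Pcx rises with Fbp1 (r 0.824) and Gckr falls with it (r -0.668), the second not passing over 36 pairs.

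The genes most like each member by the same measure are given as a description, over 20 libraries that share depth and preparation differences. For Fbp1 they were Pgk1 (r 0.982), Sdha (0.981) and Sdhd (0.98), and 787 of 12967 other genes had an r of at least 0.8 to it, and 596 of at most -0.8. For Pcx they were Pfkl (0.93), Slc38a10 (0.917) and Adgre1 (0.916), and for Gckr Krba1 (0.917), Mlxipl (0.914) and Slc47a1 (0.909). Thus Fbp1, Gckr and Pcx each lay on patterns shared with many other genes, with 254 genes at an r of at least 0.8 for Gckr and 241 for Pcx. Pklr was closest to the fat synthesis genes Acaca (0.96), Acly (0.942) and Elovl6 (0.924). The nearest to Tat were Limd2 (0.915), Got1 (0.885) and Pygm (0.878), and to Pck1 they were Btbd2 (0.84), Angptl4 (0.748) and Dio3os (0.746). G6pc was nearest to Rcan1 (0.784), Dusp1 (0.782) and Cmc2 (0.78), with no gene at 0.8. Ppargc1a was nearest to Mrnip (0.808) and Ppp1r3g (0.797), and Foxo1 to Shb (0.855), Shld2 (0.813) and Zxdc (0.813).

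Around the members, 144 further genes of glucose metabolism were listed under glucose production, glycolysis, glycogen, amino acid entry, transcriptional regulators and hormone signalling. Of the 138 that were tested in liver, 4 passed at 6 mg/kg, 3 higher and 1 lower, a share close to the 2.8% called among all genes, and their median log2 change was -0.02. Trib1, a pseudokinase adaptor that promotes degradation of C/EBPalpha, was at 18.9 ± 1.56 CPM in vehicle livers (SD, n = 4) and rose to 38.4 ± 4.05 CPM in the 6 mg/kg livers (SD, n = 6), for a fitted log2 change of 1.02 (SE 0.145, edgeR adjusted p 0.00179). It was the 1 of the 4 that also passed at 0.1 mg/kg. Socs3, an inhibitor of cytokine and insulin receptor signalling, rose from 5.26 ± 2.34 CPM (SD, n = 4) to 16.6 ± 7.58 (SD, n = 6), a log2 change of 1.66 (SE 0.325, edgeR adjusted p 0.0134). Slc25a10, the mitochondrial dicarboxylate carrier, rose from 204.8 ± 27.3 to 339.5 ± 23.8 CPM, a log2 change of 0.73 (SE 0.164, edgeR adjusted p 0.0256). Pdk4, the kinase that shuts pyruvate dehydrogenase in fasting, fell from 16.1 ± 8.58 to 6.02 ± 2.83 CPM, a log2 change of -1.41 (SE 0.337, edgeR adjusted p 0.032). Of these calls Trib1 alone also passed without vehicle animal 3 and without vehicle animal 4, where the adjusted p of Socs3 was 0.0714 and 0.0787, that of Slc25a10 0.111 and 0.0718, and that of Pdk4 0.0734 and 0.181. The Trib1 call was lost with the GC slope as a covariate (0.99, edgeR adjusted p 0.0642) and with a covariate for clock gene levels (0.84, edgeR adjusted p 0.9995). The other 3 calls were lost with each of these covariates too: with the GC slope Socs3 was at 1.32, Slc25a10 at 0.41 and Pdk4 at -1.31 (edgeR adjusted p 0.334, 0.494 and 0.371), and with clock gene levels at 1.08, 0.52 and -0.50 (edgeR adjusted p 0.9995 for each). Both covariates ran without overlap between vehicle and 6 mg/kg livers, so fits with them cannot well separate them from dose. Pdk4 also missed the threshold with the surrogate variable (-1.14, edgeR adjusted p 0.0734), and both Pdk4 (-1.32, 0.0605) and Slc25a10 (0.50, 0.0984) with an offset for GC content and length. Measured against the 0.1 mg/kg livers in place of vehicle, Socs3 was at 1.05, Slc25a10 at 0.61 and Pdk4 at -0.19, with edgeR adjusted p-values of 0.185, 0.155 and 0.853. On that reference the Trib1 change at 6 mg/kg was -0.061 (edgeR adjusted p 0.885). Over all 20 alternative fits, left-out libraries included, Trib1 passed in 17, Socs3 in 14, Slc25a10 in 10 and Pdk4 in 7.

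By list, glucose production had 15 tested genes, 1 called (Slc25a10) and 11 below 0; the next smallest p was that of Slc2a2, the liver glucose transporter, at -0.52 (SE 0.191, edgeR adjusted p 0.109). Glycolysis and pyruvate had 31 tested genes, 1 called (Pdk4) and 18 below 0, and after it Eno3, a muscle enolase, at 1.13 (SE 0.35, edgeR adjusted p 0.0749). Hormone signalling had 16, with Socs3 called and 12 below 0, and the glucagon receptor Gcgr next at 1.09 (SE 0.315, edgeR adjusted p 0.0595). The 40 transcriptional regulators had 14 below 0 and Trib1 called, and after it Creb1, a mediator of the cyclic AMP signal, at -0.62 (SE 0.188, edgeR adjusted p 0.0708). In these 4 lists the genes given after the called one did not pass. Over all tested genes at 6 mg/kg, 48.1% were below 0 and 24.2% had an unadjusted p under 0.05. None of 16 glycogen genes passed, where 1 higher and 3 lower genes had an unadjusted p under 0.05; the smallest p were those of Ugp2, which makes UDP-glucose, at -0.78 (SE 0.24, edgeR adjusted p 0.0722) and Gys1, the muscle glycogen synthase, at 1.02 (SE 0.317, edgeR adjusted p 0.0762). None of 20 amino acid genes passed, with 1 higher and 2 lower at an unadjusted p under 0.05, led by the alanine aminotransferase Gpt at 0.53 (SE 0.186, edgeR adjusted p 0.1) and the urea cycle gene Cps1 at -1.16 (SE 0.438, edgeR adjusted p 0.122).

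Lists that track the state of the liver gave mixed values at 6 mg/kg. At that dose 48.1% of all tested genes were below 0 and 24.2% had an unadjusted p under 0.05. Of 8 feeding markers, genes of fat synthesis that insulin and sugar induce, 7 were below 0 with a median of -0.86 and none passed; 3 had an unadjusted p under 0.05, and the smallest p were those of Me1 at -1.50 (SE 0.546, edgeR adjusted p 0.112) and Scd1 at -1.44 (SE 0.613, edgeR adjusted p 0.16). At 0.1 and 1 mg/kg 7 of the 8 feeding markers were below 0 too, with medians of -0.74 and -0.67. Of 10 fasting markers at 6 mg/kg 4 were below 0 and none passed, and 1 had an unadjusted p under 0.05, Cyp4a10 at 1.75 (SE 0.586, edgeR adjusted p 0.0904). Of 9 glucocorticoid response genes 4 were below 0, with a median of 0.01, and none passed. They went both ways, with 2 higher and 1 lower at an unadjusted p under 0.05. The list was led by the metallothioneins Mt1 at 1.75 (SE 0.508, edgeR adjusted p 0.0633) and Mt2 at 1.71 (SE 0.726, edgeR adjusted p 0.161).

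Of 13 clock genes, 5 passed at 6 mg/kg, 4 higher and 1 lower, against 2.8% of all genes. None passed at 0.1 or 1 mg/kg, where 6 of 13 at each dose had an edgeR p under 0.05 before adjustment, against 4.1% and 8.44% of all genes. At 6 mg/kg Tef, Per3, Dbp and Ciart were higher, by log2 changes of 1.42, 2.09, 1.68 and 2.88, with edgeR adjusted p-values of 0.013, 0.0134, 0.0134 and 0.0248, and Arntl, which is part of the index below and was named after its values were seen, was lower, by -1.98 with 0.0333. None of these calls held without vehicle animal 3 or without vehicle animal 4, nor with the GC slope as a covariate (edgeR adjusted p 0.234 to 0.505), with the 6 mg/kg and vehicle groups alone (0.0571 to 0.0722) or against 0.1 mg/kg (0.567 to 0.916). With the surrogate variable the calls of Arntl (edgeR adjusted p 0.084) and Ciart (0.0872) were lost. A clock index, taken as the difference between the log2 CPM of Dbp and of Arntl, was 2.05 to 5.45 in the 4 vehicle livers and 5.76 to 8.60 in the 16 dosed livers, with no overlap. It rests in part on low counts, since Arntl was counted 32 to 102 times in a vehicle library and 5 to 30 times at 6 mg/kg. Ciart was counted 6 to 39 times in a vehicle library. Vehicle animals 3 and 4 had an index of 2.05 and 2.49, and animals 7 and 8 of 5.19 and 5.45. With the index as a covariate the 6 mg/kg change was -0.93 for G6pc, -0.62 for Pck1, -0.41 for Tat and -0.38 for Fbp1, and no member passed. As the index did not overlap between vehicle and dosed livers, this fit cannot well separate it from dose.

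Some library measures also differed between vehicle and 6 mg/kg. Total counts per library ran from 7381179 to 10203247 in liver and from 8283032 to 12135200 in the brain regions. The GC slope of a liver library, the Spearman correlation across genes between its deviation from the mean of all libraries and GC content, was -0.282 to -0.162 in vehicle and -0.019 to 0.238 at 6 mg/kg, with no overlap; with it as a covariate the change of G6pc was -1.82, of Pck1 -1.09, of Tat -1.05, of Fbp1 -0.55 and of Pklr -0.09, and no member passed. Summed levels of the 5 Kupffer cell and leukocyte markers, all with counts, were 98.7 to 163 CPM in vehicle and 137.5 to 289.5 at 6 mg/kg. The 7 neuron and glia markers summed to 10.6 to 56.1 CPM in vehicle and 11.6 to 68.1 at 6 mg/kg, the 3 listed red cell markers to 47.8 to 3067 and 69.3 to 229.5 CPM, and the 4 stellate cell and fibroblast markers to 214.5 to 338 and 114.5 to 308 CPM. In the same order, the 4 cholangiocyte markers summed to 7.46 to 10.6 and 4.23 to 9.37 CPM. The 4 endothelial markers summed to 99.2 to 126.2 and 83.0 to 123.7 CPM. The part of these other cells in the member levels was not tested. Within dose groups, none of the 18 correlations of a member with the GC slope or the clock index passed after adjustment; the smallest permutation p was that of G6pc and the GC slope, 0.0703 for r (r 0.401, adjusted p 0.641; 0.353 without the 2 farthest livers) and 0.0379 for Spearman (rho 0.495, adjusted p 0.371). Ppargc1a and the GC slope had a rho of -0.486 (permutation p 0.0412, adjusted p 0.371). G6pc and the clock index had an r of 0.0393 (permutation p 0.86, adjusted p 0.91) and a rho of 0.015 (permutation p 0.952).

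Of the brain tables, neither listed G6pc, and Pck1, Gckr and Tat were listed in the striatum and not in the prefrontal cortex, with at most 7 counts in a library. Fbp1 and Pklr were listed in both regions and stayed under 1.2 CPM in each library. Pcx, Ppargc1a and Foxo1 were tested in both regions, among 14838 cortical and 15118 striatal genes that passed the filter. Per kilobase, Pcx stood at 22.1 ± 2.85 CPM in vehicle prefrontal cortex and 31.5 ± 2.62 in striatum (SD, n = 4), both under its liver level. Ppargc1a stood at 6.79 ± 0.881 and 6.01 ± 1.28, and Foxo1 at 4.49 ± 0.96 and 10.02 ± 1.76 CPM per kilobase (SD, n = 4), each above its liver level, in tables that were scaled separately.

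None of the 3 passed in either region at 6 mg/kg, where 0% of genes were called, while 9.27% of cortical and 15.7% of striatal genes had an edgeR p under 0.05 before adjustment. In the striatum Ppargc1a was 34.5, 51.0, 32.9 and 37.0 CPM in vehicle and ran from 21.4 to 35.2 CPM at 6 mg/kg, with a median of 31.7. Those groups overlapped, and the log2 change was -0.34 (SE 0.144, interval -0.64 to -0.04, edgeR adjusted p 0.264). At 1 mg/kg the sign was the opposite, 0.30 (SE 0.144, interval 0.01 to 0.60, edgeR adjusted p 0.676), and Pcx was at -0.21 (SE 0.0907, interval -0.39 to -0.02, edgeR adjusted p 0.676). The remaining changes at 6 mg/kg were 0.06 for Pcx and -0.17 for Foxo1 in the striatum, and -0.06 for Pcx, -0.06 for Ppargc1a and 0.13 for Foxo1 in the prefrontal cortex, with edgeR adjusted p-values between 0.693 and 0.935.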

How the data were processed

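Messenger RNA of 62 libraries was sequenced by the authors after poly(A) capture or ribosomal RNA removal, per the labels' protocols, which do not say which was used. The submitters' processing notes name FastQC, HISAT2 and mm10; the counting tool, annotation and use of strand are not given in the sources used here. For every tissue the authors deposited 1 table of raw counts per gene, without normalization, in whole numbers keyed by Entrez identifier, with no gene under a total of 10 counts. Symbols came from RefSeq GRCm38.p6 (99.95% of liver, 99.97% of prefrontal cortex and 99.95% of striatum identifiers). Libraries of a group differed by more than sampling noise (smallest chi-square per degree of freedom 2.94).

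The tissues were modelled one at a time in edgeR 4.0.16 under R 4.3.3 (filterByExpr on dose groups, trimmed mean of M values, TMM, robust quasi-likelihood, all dose groups together). P-values were adjusted by Benjamini-Hochberg with a threshold of 0.05. Log2 CPM used a prior count of 2. P-values measure the spread between libraries that the labels number as different mice. Correlations used deviations from dose group means with 100000 two-sided permutations within groups (Python 3.11.15, scipy 1.17.1). Alternatives were DESeq2 1.42.0, median-ratio size factors, other filters, 1 surrogate variable (sva 3.50.0), covariates, a GC and length offset (known for 96.5% of tested liver genes), the dose group with vehicle alone, a 0.1 mg/kg reference and leaving out each library. The fits were also run on simulated counts with changes set in advance, whose outcome is not reported here.

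All 9 members are named; from each pathway list the rule named at most 4 passing genes of smallest p at 6 mg/kg, and 2 of smallest p where fewer than 2 passed; and for each member the 3 genes of highest r. Arntl falls outside this rule, and a few genes that it named are not reported here. The members and lists were chosen with earlier results of these data known.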

Additional observations from a re-analysis of the deposited data

Results flagged for a closer look

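Of 60 sets of libraries of 1 gene, tissue and dose with 4 to 6 libraries, 3 held a library far from the others of its set, and chance at 1 in 20 gives 3. G6pc in the liver of animal 42 at 1 mg/kg was at 246.08 CPM, while the other 5 were between 56.3 and 117 CPM. Tat in the liver of animal 50 at 1 mg/kg was at 1522.3 CPM, while the other 5 were between 710.5 and 1006 CPM; that library also had the highest Pck1 level of all 20 livers, 2689.7 CPM. Ppargc1a in the striatum of animal 54 at 6 mg/kg was at 21.4 CPM, while the other 5 were between 30.3 and 35.2 CPM. Without animal 50 at 1 mg/kg, the Tat slope over dose rank was -0.28 (edgeR adjusted p 0.1).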

How the results depend on the processing

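In liver no member passed at 6, 1 or 0.1 mg/kg under any alternative run, nor did one in either brain region at 6 mg/kg, where alternatives were run at that dose alone; the Tat slope passed without animal 56 at 6 mg/kg, so 0 to 1 members passed over dose rank when a replicate was left out. Of 765 alternative values of the member changes, 714 kept the reported direction. At 6 mg/kg Fbp1 ran from -1.61 to -0.38, G6pc from -1.82 to -0.20, Pck1 from -1.09 to -0.38, Tat from -1.05 to -0.41, Pklr from -0.87 to -0.09 and Gckr from 0.06 to 0.53 over 20 alternatives, all in the reported direction, with lowest adjusted p-values of 0.0765, 0.125, 0.134, 0.0618, 0.132 and 0.0996. The sign turned for Ppargc1a with the surrogate variable (0.0879), the clock index (0.20), the GC and length offset (0.071) and the GC slope (0.34) and, without vehicle animals 3 or 8 or animal 58 at 6 mg/kg, to 0.0108, 0.0425 and 0.0245; its values with a replicate left out ran from -0.15 to 0.0425, and those of Pcx from -0.11 to 0.13. It turned for Foxo1 with the clock index (0.14), and for Pcx with the offset (-0.22) and without vehicle animal 8 (-0.03) or 6 mg/kg animals 55 (-0.11) and 56 (-0.0049). It also turned for Arntl with the clock index (0.53), which is built from it, and against 0.1 mg/kg for Trib1 (-0.061) and Ciart (-0.18).

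Of all liver genes at 6 mg/kg (363 reported), DESeq2 called 1138, the fit on unfiltered counts 241, and 194 passed with the surrogate variable, 124 with the offset, 13 with the 2 groups alone, 5 against 0.1 mg/kg, 1 with the GC slope, 0 with the clock index (471 unadjusted), and 3 to 1302 when a replicate was left out; the ends were vehicle animal 4 and 6 mg/kg animal 56. Of the listed glucose genes (4 reported) 15 passed with DESeq2, 2 with the offset, 1 with the 2 groups alone, 0 against 0.1 mg/kg (16 unadjusted), 0 with the GC slope (15 unadjusted), 0 with the clock index (2 unadjusted) and 1 to 17 when a replicate was left out. The GC slope covariate was chosen after seeing the data, and causes were not tested. The GC slope and the clock index each ran without overlap between vehicle and 6 mg/kg livers. A fit with either cannot well separate it from dose. The count of correlated pairs was 1 with either scaling. No paired analysis was possible because the dose groups of a tissue share no animal. At 40 to 111 counts per liver library, Ppargc1a had the shallowest counts of the members.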
